A study of Mus musculus with 39 samples.

Results

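The weaker intronic BCL6 peaks are 1079 of the 3022 peaks (35.7%) that the study called for the transcription factor BCL6 in mouse brown fat. They are the called peaks whose deposited annotation places them in an intron and whose peak score is below 10. They make up 85.5% of the 1262 intronic peaks, and the other 183 intronic peaks, with scores of 10 and over, are called stronger intronic peaks here. The members were chosen by the measured peak score and by the annotated intron, so both are given below as a description. Beside them stand 924 weaker intergenic peaks and 446 weaker promoter peaks, which also score below 10.

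The study took interscapular brown adipose tissue, the heat-producing fat pad between the shoulder blades, from male BCL6-floxed C57BL/6J mice. The 4 RNA groups, of 4 libraries each, were Cre-labelled mice at 30 °C, control mice without Cre at 30 °C, Cre-labelled mice at 22 °C and control mice without Cre at 22 °C. The floxed Bcl6 alleles are carried by controls as well, so the labels differ between the groups only in Cre and in temperature. The Cre gene is under the Ucp1 promoter, which is active in brown adipocytes, while the RNA came from the whole tissue with its other cells; age is not given. BCL6 binding was measured by ChIP-seq (sequencing of DNA bound by the protein) in control brown fat at 30 °C, where 1 library gave the called peaks. There is therefore no replicate and no test between classes of peaks, and binding in Cre-labelled mice or at 22 °C was not analysed here. The labels do not say that the RNA libraries came from separate animals, so p-values measure the spread between these libraries.

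BCL6 is a zinc-finger protein that binds DNA and, in B cells and other cell types, lowers the transcription of its targets through corepressors such as NCOR and SMRT. Its preferred DNA element resembles the element bound by STAT proteins. An intronic peak can lie in an enhancer of the host gene, in an enhancer of another gene, or at a start that the annotation does not use, and a called peak alone does not tell these apart.

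The sequence of a member can be printed where a reference promoter window covers it, and 12 members overlap such a window of 300 bases. The 6 stretches of at least 70 bases are shown because they are the members whose DNA could be read over that length, and each lies at the start of a long noncoding RNA inside the intron. They are RefSeq sequences of the GRCm38.p6 build, from 5′ to 3′ on the strand of the noncoding gene, and capitals mark a match to TTCNNNGAA, the STAT-like spacing, within which TTCCTNGAA is the narrower BCL6-like core. Both motifs were searched on both strands, and every core match is also a match of the spaced motif.
Umad1: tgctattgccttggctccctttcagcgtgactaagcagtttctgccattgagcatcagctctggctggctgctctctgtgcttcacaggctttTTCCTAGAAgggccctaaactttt
Nim1k: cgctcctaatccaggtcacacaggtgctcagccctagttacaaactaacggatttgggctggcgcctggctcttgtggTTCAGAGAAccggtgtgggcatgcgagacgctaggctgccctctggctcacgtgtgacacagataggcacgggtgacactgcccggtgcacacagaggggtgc
Zkscan8: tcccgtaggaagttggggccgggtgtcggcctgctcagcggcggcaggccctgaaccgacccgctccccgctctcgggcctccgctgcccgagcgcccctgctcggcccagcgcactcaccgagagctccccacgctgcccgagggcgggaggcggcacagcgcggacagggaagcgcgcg
Rnf144b: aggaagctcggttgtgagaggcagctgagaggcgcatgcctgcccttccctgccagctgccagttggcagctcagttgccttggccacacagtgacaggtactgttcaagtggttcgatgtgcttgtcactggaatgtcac
Tns1: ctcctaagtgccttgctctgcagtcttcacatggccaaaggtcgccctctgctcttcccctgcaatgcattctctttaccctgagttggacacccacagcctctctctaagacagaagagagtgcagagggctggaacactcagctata
Tppp: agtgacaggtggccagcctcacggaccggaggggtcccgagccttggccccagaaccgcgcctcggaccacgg

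The Umad1 stretch lies at chr6:8345527-8345643 on the minus strand, at the start of Gm46952, and holds 1 core match, TTCCTAGAA. Its peak scores 5.9 and is 86265 bases from the nearest start in the deposited annotation. The Nim1k stretch, at chr13:119755257-119755437 on the plus strand at the start of Gm41077, holds the looser match TTCAGAGAA. No match to either motif was found in the other 4 stretches, which lie at chr13:21530825-21531005 (Zkscan8, plus strand, start of Gm32724), chr13:47224257-47224397 (Rnf144b, minus strand, start of Gm40934), chr1:74095515-74095663 (Tns1, plus strand, start of Gm31637) and chr13:74009532-74009604 (Tppp, minus strand, start of Gm15912). Among 32851 RefSeq promoter windows, 8.30% hold the spaced motif and 1.59% the core over 300 bases. In the middle 181 bases, the length of the longest stretches printed, these shares are 4.97% and 0.931%. These 6 stretches are too few to give a share, and they stand at starts, where most members do not. The Zkscan8 and Tppp stretches are rich in G and C, at 76.8% and 72.6% of their bases, against 50.4% for the Umad1 stretch.

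Peak scores of the members fall on 33 steps from 4.11 to 9.83, which are 0.17 or 0.18 apart. Their median is 4.83, and 171 members (15.8%) sit on the lowest step, so the set is crowded against the lower end of the called range. The labels used here state neither the unit of the score nor the score or false discovery threshold at which calling stopped. Just inside the threshold, at 9.83, are 6 peaks, nearest to Bend3, Lncenc1, Ankrd55, Nid2, Pxmp4 and Fam102a. Just outside it are Baiap2 at 10.0 and 4 peaks at 10.2, nearest to Ndufb9, Mertk, 2010106C02Rik and 1700031L13Rik. Every peak has the same deposited width, 180 bases from start to end. The HOMER focus ratio, the share of a peak's reads that lie in its expected positions around the centre, had a median of 0.729 in members and 0.839 in stronger intronic peaks.

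Members lay at a median distance of 19138 bases from the nearest transcription start, with quartiles of 4736 and 50329.5 bases and a range of 108 to 787487 bases. The median was 20723 bases for stronger intronic peaks, 33514.5 bases for weaker intergenic peaks and 212.5 bases for weaker promoter peaks. The members differed from the stronger intronic peaks at the near end. Within 1 kb of a start lay 152 members (14.1%, exact Clopper-Pearson 95% interval 12.1 to 16.3%), against 7 of 183 stronger intronic peaks (3.83%, 1.55 to 7.72%). Within 10 kb the shares were 34.7% of members and 29.0% of stronger intronic peaks, and beyond 100 kb lay 9.18% of members. These intervals cover counting error only, and with 1 ChIP library the difference is a description of these peaks.

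**Figure D1:**
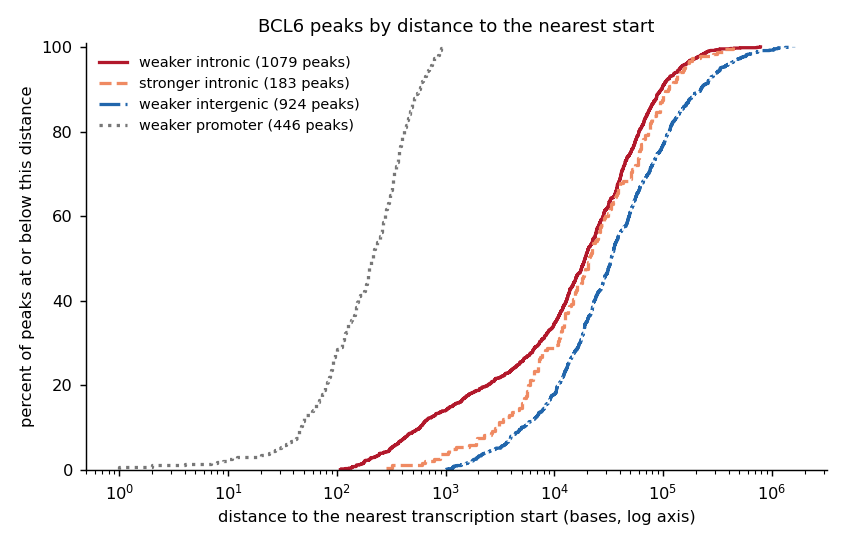
Cumulative percent of peaks (vertical axis) at or below each distance to the nearest transcription start (horizontal axis, bases, log scale), for 1079 weaker intronic, 183 stronger intronic, 924 weaker intergenic and 446 weaker promoter peaks. The weaker intronic curve starts above the stronger intronic one, with 14.1% against 3.83% within 1 kb, and the medians are 19138 and 20723 bases.

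The near-start members overlap with CpG islands, the stretches rich in CG pairs that mark many promoters. The deposited detailed annotation places 62 members (5.75%, 4.43 to 7.31%) in a CpG island, against 1 of 183 stronger intronic peaks (0.546%, 0.0138 to 3.01%) and 1.84% of weaker intergenic peaks. The 62 lay a median of 306.5 bases from a start, and 61 of them lay within 10 kb. The closest members of all are in the first introns of Fuk (108 bases), Klf2 (109), Lrrc51 (110), Zfp780b (120) and Tldc1 (129), and those of Fuk and Klf2 are in CpG islands. At the far end are Erbb4 (787487 bases), Sntg1 (730475), Park2 (512636), Sdk1 (450304) and Pcdh9 (415468), which are very long genes active in neurons or at synapses. The 3 farthest of these peaks lie in repeats. Pcdh9, Sdk1 and Sntg1 were too low in brown fat RNA to be tested, with no library above 11.5 normalised counts.

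First introns held 452 members (41.9%, 38.9 to 44.9%), against 67 stronger intronic peaks (36.6%, 29.6 to 44.04%), and second introns held 164 members (15.2%). Members in first introns lay a median of 4343 bases from a start, against 32648 bases for the 627 in later introns. Most members, 878 (81.4%), lie past the nearest start in the direction of transcription. The intron belonged to the nearest gene in 811 members (75.2%). In the other 268 the intron belonged to a different gene, and the median distance was 38562.5 bases, against 13768 bases for the 811. The pair of members assigned to Fasn, for example, sit in introns of its neighbour Ccdc57, at −26651 and −49022 bases from the Fasn start, which is upstream of it. The nearest gene was protein-coding for 935 members (86.7%).

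Repeats held 135 members (12.5%, 10.6 to 14.6%). The share was 11.5% of stronger intronic peaks (7.25 to 17.0%) and 18.5% of weaker intergenic peaks (16.1 to 21.2%). By class, 42 members lie in LTR elements (remnants of retroviruses), 37 in LINEs and 34 in SINEs (long and short retrotransposons), 14 in DNA transposons and 4 in simple repeats. LTR elements held 3.89% of members and 8.01% of weaker intergenic peaks, while SINEs held 3.15% of members and 1.09% of stronger intronic peaks. The commonest families were L1 with 27 members, ERVL-MaLR with 21, Alu with 13, ERVK and hAT-Charlie with 11 each, and B4 with 9. Repeat members lay farther out, a median of 23990 bases from a start, and among the 171 members on the lowest score step 34 (19.9%) were in a repeat. Reads from near-identical repeat copies can be hard to place, and how multiply placed reads were treated is not stated in the labels used here.

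**Figure D2:**
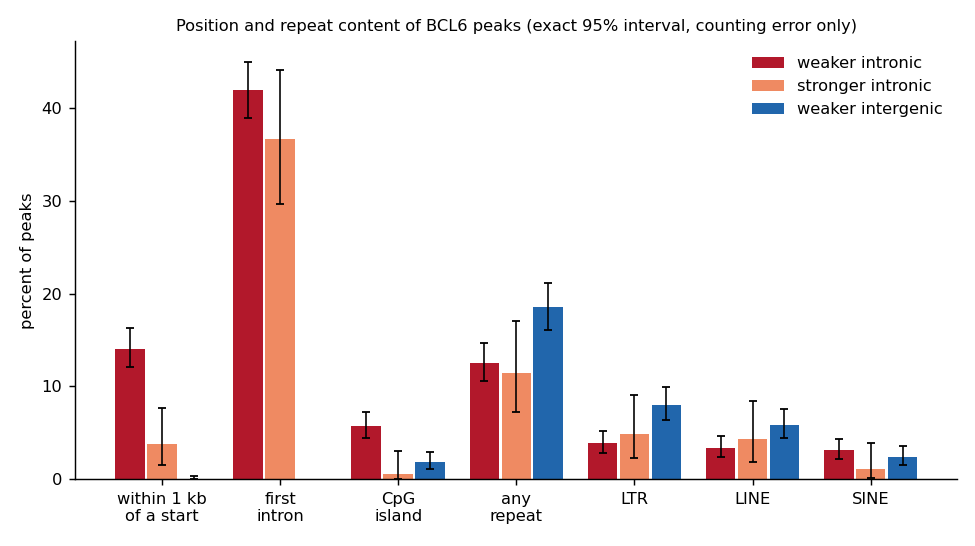
Percent of peaks (vertical axis, from 0) with each feature (horizontal axis) for weaker intronic, stronger intronic and weaker intergenic peaks; bars are shares and lines are exact 95% intervals for counting error. Weaker intronic peaks stand at 14.1% within 1 kb of a start and 5.75% in CpG islands, above the stronger intronic peaks at 3.83% and 0.546%, while any repeat stands at 12.5% and 11.5%.

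Across chromosomes, chromosome 2 held the most, 87, and X held 8. Members were mostly solitary, since 86 (7.97%) had another called peak within 10 kb. The 1079 members named 958 nearest genes. Of these, 858 had 1 member peak, 83 had 2, 14 had 3, Esr1 and Slc24a3 had 4, and Arhgap26 had 5. A called peak of another class also named 149 of the 958 genes, a stronger peak 57 of them and a promoter peak 27.

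RNA was given for 948 of the 958 genes, and 748 passed the filter of a mean of at least 10 normalised counts over the 16 libraries. That is 78.9% of those listed, against 54.6% of all 24116 genes. Of the rest, 200 were below the filter and 10 were absent from the RNA table. Among the genes that passed, the median level was 380 normalised counts near members and 276 over all 13176 genes tested. Levels are normalised counts without division by gene length, so they are not compared between genes one by one.

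The library totals ran from 8867615 to 9975035 normalised counts at 30 °C and from 10122739 to 13516936 at 22 °C, without overlap. Between 14311 and 16849 genes were above 0, and the sequencing depth itself is unknown. Bcl6, the floxed gene, had 3269, 4451, 5159 and 4985 normalised counts in Cre-labelled libraries at 30 °C, against 2340, 2266, 1763 and 1020 in control libraries at 30 °C. At 22 °C it had 3263, 2671, 3362 and 3927 in Cre-labelled libraries, against 916, 799, 764 and 1838 in control libraries. It was thus higher in every Cre-labelled library than in any control library of the same temperature (two-sided exact permutation test, p = 0.0286 each, the smallest that 4 against 4 allow). The labels do not say which exons are floxed, and a count over the whole gene does not check a deletion of part of it. The groups are therefore called Cre-labelled throughout. Marker sums of several cell types differed between the groups, though not all of them went with the Cre label. Summed macrophage markers (10 genes) ran from 5179 to 13459 normalised counts in Cre-labelled and from 3019 to 3778 in control libraries at 30 °C, and from 1865 to 2649 in Cre-labelled and from 1046 to 1857 in control libraries at 22 °C. Summed brown adipocyte markers (10 genes) ran from 27229 to 32216 in Cre-labelled and from 47516 to 53983 in control libraries at 30 °C, and from 75585 to 130836 in Cre-labelled and from 118139 to 181061 in control libraries at 22 °C. By median, Dio2, Ebf2 and Zic1 were higher in Cre-labelled libraries at 30 °C and the rest lower. At 22 °C Dio2 and Cox8b were higher and the rest lower. Summed general adipocyte markers overlapped at 30 °C, from 117246 to 150287 in Cre-labelled and from 116768 to 139233 in control libraries. At 22 °C they also overlapped, from 182679 to 242231 and from 210775 to 259986. Summed skeletal muscle markers ran from 42.1 to 22187 in Cre-labelled and from 6978 to 12968 in control libraries at 30 °C, and from 132 to 25626 in Cre-labelled and from 109 to 3168 in control libraries at 22 °C. Every control library at 30 °C thus held more muscle RNA than any at 22 °C, and 10 of 21 muscle genes were higher and 0 lower at 30 °C in control fat. Keratins Krt5 and Krt14 had a median of 0. In bulk tissue, fewer cells of a type and less RNA per cell cannot be told apart, and the part of macrophage and brown adipocyte RNA in the results below was not tested. A fit with the skeletal muscle score as covariate is given beside the counts it bears on.

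The RNA groups are set against the members by asking how many of the 748 genes passed the test, beside the same share over all genes. At 30 °C, 52 genes near members were higher in Cre-labelled than in control fat (6.95%, background 5.65%) and 59 were lower (7.89%, background 6.85%), by limma on log2(value + 1) with an adjusted p under 0.05 over all 13176 genes. The median difference was 0.014 on the log2 scale for the 748 and 0.0055 for all genes. At 22 °C, 61 were higher (8.16%, background 5.51%) and 38 lower (5.08%, background 4.69%), with a median difference of 0.040 for the 748 and −0.0042 for all genes. These shares stand near the background, the largest gap being that for genes higher at 22 °C. At 22 °C, 8.32% of 493 genes nearest to a weaker intergenic peak were higher, and 4.90% of 408 nearest to a weaker promoter peak. With the muscle score as covariate, 52 genes near members were higher and 54 lower at 30 °C. Over all 13176 genes, 693 were then higher and 830 lower, against 745 and 902 without the covariate. At 22 °C, 60 near members were higher and 36 lower with the covariate. Over all genes these were 682 and 589, against 726 and 618 without it. Single libraries decide the counts, and the share over all genes moved with them. At 30 °C there were 31 higher and 39 lower without control library 4, beside 3.43 and 4.24% of all genes. There were 32 higher without Cre-labelled library 3 or 4, beside 4.15 and 3.70% of all genes, and 36 lower without Cre-labelled library 1, beside 4.54%. At 22 °C there were 40 higher without control library 3 and 39 higher without Cre-labelled library 1, beside 3.26 and 3.23% of all genes. There were 38 higher and 23 lower without Cre-labelled library 3, beside 3.07 and 2.73%, and 64 lower without Cre-labelled library 2, beside 9.05%. Without the 2 libraries with the fewest genes above 0 (control 1 and Cre-labelled 2 at 22 °C), 97 were higher and 97 lower at 30 °C, beside 10.1 and 11.1% of all genes, and 82 were higher and 68 lower at 22 °C, beside 8.71 and 9.08%. The fit of the groups compared alone called 80 higher at 30 °C (10.7%, against 8.52% of all genes), and 26 higher (3.48%, against 2.09%) and 13 lower (1.74%, against 1.89%) at 22 °C.

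Genes called at one temperature were in part called at the other. Of the genes near members, 28 were higher in Cre-labelled fat at both temperatures, 53.8% of those at 30 °C and 45.9% of those at 22 °C. Lower at both were 22, 37.3% of those at 30 °C and 57.9% of those at 22 °C, and 0 were called in opposite directions. The 2 temperatures use separate libraries but come from the same fit, which shares its estimate of the spread. The same overlap was not computed over all genes, so whether these shares are particular to genes near members is unknown. The interaction of Cre label and temperature passed for 3 genes in the higher direction (background 0.175%) and 2 in the lower (background 0.266%). They are Cd83, Tc2n and 5031439G07Rik, and Tusc3 and Stk39.

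Genes near stronger intronic peaks were called higher more often than genes near members, a difference that carries no test here. Of 118 tested genes nearest to a stronger intronic peak, 31 (26.3%) were higher in Cre-labelled fat and 6 lower at 30 °C, and 33 (28.0%) were higher and 1 lower at 22 °C. Their median differences were 0.24 and 0.26, against 0.014 and 0.040 for genes near members. A gene can stand in both sets, and 28 of the genes tested had a member and a stronger intronic peak. Where genes were sorted by the score of their strongest intronic peak, the share higher at 30 °C was 3.83% for scores from 4 to under 4.5 (261 genes), 4.55% from 4.5 (88 genes), 8.16% from 5 (196 genes), 10.9% from 6 (119 genes), 8.93% from 8 to under 10 (56 genes), 22.0% from 10 (59 genes) and 30.5% from 15 up (59 genes). At 22 °C the shares of the same classes were 4.98, 3.41, 11.2, 11.8, 8.93, 22.0 and 33.9%. Below a score of 5 the share was thus under the background at both temperatures in this fit, and from 5 to 10 it was above it. The shares of genes lower in Cre-labelled fat showed no such order, between 3.39 and 11.4% at 30 °C and between 0 and 10.2% at 22 °C. These score classes were drawn after the values were seen, and without the 2 libraries with the fewest genes above 0 the shares at 30 °C were 9.20, 10.2, 15.3, 16.8, 16.1, 28.8 and 39.0%, over a background of 10.1%. At 22 °C they were then 8.81, 4.55, 12.2, 15.97, 8.93, 28.8 and 39.0%, over a background of 8.71%. There the class from 4.5 at 30 °C and the class from 4 at 22 °C lay slightly above the background, so that the statement on scores below 5 did not hold for them.

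**Figure D3:**
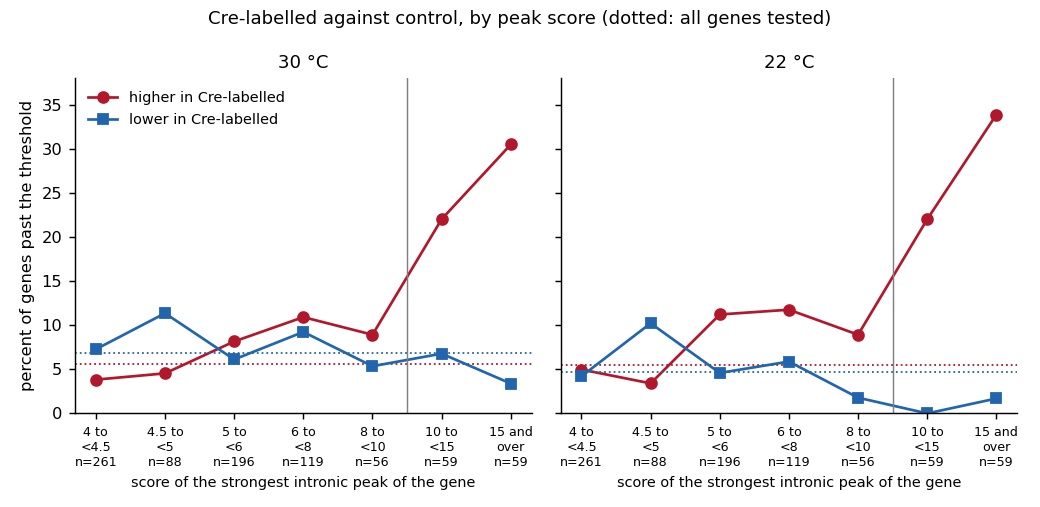
Percent of genes (vertical axis) past an adjusted p of 0.05 in limma, for Cre-labelled against control fat at 30 °C (left) and 22 °C (right), by the score of the strongest intronic peak of the gene (horizontal axis, with the number of genes tested). Circles are genes higher and squares genes lower in Cre-labelled fat, dotted lines are the shares over all genes, and the vertical line stands at the score of 10. Higher calls run from 3.83% to 30.5% at 30 °C.

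Genes that also had called peaks of another class had more higher calls, again without a test of the difference. The 626 genes whose called peaks are all weaker intronic ones were higher in 37 (5.91%) and lower in 49 cases at 30 °C, and higher in 38 (6.07%) and lower in 33 at 22 °C. The 122 that also had a called peak of another class were higher in 15 (12.3%) and lower in 10 at 30 °C, and higher in 23 (18.9%) and lower in 5 at 22 °C. These and the next shares stand beside 5.65% higher and 6.85% lower over all genes at 30 °C, and 5.51 and 4.69% at 22 °C. Among 80 genes with 2 or more member peaks, 9 were higher (11.2%) and 5 lower (6.25%) at 30 °C, and 11 higher (13.8%) and 3 lower (3.75%) at 22 °C. Taking the gene that holds the intron in place of the nearest gene gave 57 higher (7.02%) and 71 lower (8.74%) of 812 at 30 °C and 70 higher (8.62%) and 43 lower (5.30%) at 22 °C. The 94 tested genes with a member in a repeat were higher in 5 (5.32%) and lower in 11 cases (11.7%) at 30 °C, and higher in 9 (9.57%) and lower in 4 (4.26%) at 22 °C.

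Among signalling genes near members, Dusp10, the phosphatase that switches off p38 and JNK kinases, had the largest increase of the named genes at 30 °C. It had 1000, 624, 1242 and 1159 normalised counts in Cre-labelled libraries at 30 °C, against 155, 510, 181 and 163 in control libraries. At 22 °C it had 907, 1063, 694 and 1432 in Cre-labelled libraries, against 383, 272, 373 and 515 in control libraries. The groups do not overlap at either temperature, although control library 2 at 30 °C stands well above the other 3. The log2 differences were 2.14 ± 0.33 (SE, limma adjusted p = 4.76e-04) at 30 °C and 1.39 (adjusted p = 0.0138) at 22 °C. Its peak, with a score of 9.12, lies in intron 2 at chr1:184053182-184053362 (mm10), 18891 bases past the start.

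Rasa3, a GTPase-activating protein that turns off Ras and Rap, had 1110, 1077, 974 and 1022 normalised counts in Cre-labelled and 481, 471, 547 and 497 in control libraries at 30 °C. At 22 °C it had 877, 683, 717 and 775 in Cre-labelled and 316, 376, 327 and 293 in control libraries. The spread within groups was small and the groups lie far apart at both temperatures. The log2 differences were 1.07 (adjusted p = 4.27e-06) and 1.21 (adjusted p = 1.22e-06), and its peak, with a score of 4.65, is in intron 1, 12701 bases past the start.

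Cd83, a surface protein of activated dendritic cells and lymphocytes, had 194, 110, 218 and 180 normalised counts in Cre-labelled and 45.2, 61.7, 50.3 and 48.1 in control libraries at 30 °C. At 22 °C it had 45.4, 66.1, 44.0 and 48.4 in Cre-labelled and 42.7, 37.0, 39.1 and 37.9 in control libraries. The Cre-labelled libraries at 30 °C thus stand above the other 12, in the group that also has the highest macrophage markers. The log2 difference was 1.72 (adjusted p = 3.07e-05) at 30 °C and 0.35 (adjusted p = 0.285) at 22 °C. The interaction was 1.36 (adjusted p = 0.0420), but it missed the threshold under 16 alternative settings, with adjusted p from 0.0515 to 0.129. Its peak is on the lowest score step, 4.11, 10404 bases past the start. Cd83 also has a weaker intergenic peak, with a score of 5.9.

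Hdc, the enzyme that makes histamine, had 98.1, 87.9, 115 and 125 normalised counts in Cre-labelled and 50.7, 53.2, 40.5 and 55.7 in control libraries at 30 °C. The groups do not overlap, with a log2 difference of 1.07 (adjusted p = 1.17e-04), and at 22 °C it was 0.58 (adjusted p = 0.0161). With quantile normalisation the call at 22 °C was lost (adjusted p = 0.0867). Dusp10, Rasa3, Cd83 and Hdc are 4 of the 10 largest increases at 30 °C among clearly expressed genes, those with a mean of at least 100 normalised counts in a group and no overlap between groups. The remaining 6 of the 10 rose by 0.85 to 1.08 on the log2 scale. They are Dpysl3 (a collapsin response mediator, 1.08), Tmem159 (a lipid droplet assembly factor, 0.94), Litaf (an endosomal and lysosomal membrane protein, 0.91), Ttyh2 (a tweety-family membrane protein, 0.88), Gnai1 (an inhibitory G protein subunit that lowers cAMP production, 0.88) and Yeats2 (a histone reader of the ATAC complex, 0.85). Of these 6, Dpysl3, Ttyh2, Gnai1 and Yeats2 also rose at 22 °C, by 1.01, 1.01, 0.59 and 0.90. Gnai1 also has a stronger intergenic peak, with a score of 12.7, and Ttyh2 a weaker promoter peak, with a score of 4.11.

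At 22 °C the largest increase of the named genes was that of Strip2, a scaffold of the STRIPAK phosphatase and kinase complex. It had 224, 200, 204 and 187 normalised counts in Cre-labelled libraries at 22 °C, against 46.0, 43.4, 56.5 and 97.2 in control libraries. At 30 °C it had 733, 548, 631 and 522 in Cre-labelled libraries, against 305, 332, 336 and 499.7 in control libraries. All libraries at 30 °C lie above all at 22 °C, and Cre-labelled libraries lie above control libraries at both temperatures. The log2 difference was 1.80 (adjusted p = 3.94e-05) at 22 °C and 0.74 (adjusted p = 0.0306) at 30 °C, where leaving out any of 5 libraries (control 1, 2 or 3, Cre-labelled 1 or 3) lost the call, with adjusted p from 0.0713 to 0.101. Its member lies in an ERVL-family LTR element, RLTR28, in intron 13. Strip2 also has a weaker promoter peak with a score of 9.12 and a weaker intergenic peak with a score of 9.3.

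Stk39, the SPAK kinase that acts on salt cotransporters, had 526, 619, 336 and 470 normalised counts in Cre-labelled and 276.9, 175, 177 and 159 in control libraries at 22 °C. At 30 °C it had 553, 506, 508 and 418 in Cre-labelled and 498, 451, 443 and 451 in control libraries. The control libraries at 22 °C are the low group, and the other 3 groups share a range. The log2 difference was 1.30 (adjusted p = 2.03e-04) at 22 °C and 0.10 (adjusted p = 0.781) at 30 °C. The interaction of −1.20 (adjusted p = 0.0450) missed the threshold under 18 alternative settings, with adjusted p from 0.0573 to 0.122. A stronger intronic peak, with a score of 12.2, lies in the same gene.

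Strip2, Stk39, Dusp10 and Rasa3 are 4 of the 10 largest increases at 22 °C by the same rule, and the remaining 6 rose by 1.01 to 1.18 on the log2 scale. They are Retreg1 (the receptor FAM134B for degradation of endoplasmic reticulum, 1.18), Col12a1 (collagen XII, 1.15), Dapk1 (a calmodulin-regulated kinase, 1.10), Itpkc (an inositol trisphosphate kinase, 1.07), Dglucy (D-glutamate cyclase, 1.04) and Glrx (glutaredoxin, 1.01). Glrx also rose at 30 °C, by 0.68 (adjusted p = 0.00722), and Dapk1 by 0.71 (adjusted p = 0.0433), a call lost in 14 settings (adjusted p up to 0.13). Itpkc rests on a narrow margin, with an adjusted p of 0.0482 that was lost in 17 settings (0.0527 to 0.139). The members of Dapk1, Itpkc and Glrx lie in repeats, an L1 element, a SINE and an LTR element. Each of these genes also has another weaker peak, intergenic for Dapk1 (score 6.26) and Glrx (6.79) and at the promoter for Itpkc (4.29). Dglucy has another weaker peak too, with a score of 5.18. Retreg1 also has a stronger promoter peak, with a score of 12.0.

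On the lower side, Tusc3, a subunit of the oligosaccharyltransferase that attaches sugars to proteins, had the largest interaction of the 5 genes. It had 215, 260, 206 and 261 normalised counts in Cre-labelled libraries at 30 °C, against 3772, 3903, 3082 and 3012 in control libraries. At 22 °C it had 145, 256, 168 and 136 in Cre-labelled libraries, against 341, 178, 195 and 266 in control libraries. The 4 control libraries at 30 °C, at 3012 and over, stand above the other 12, which are at 341 or less. The log2 difference was −3.86 (adjusted p = 4.70e-09) at 30 °C, −0.47 (adjusted p = 0.16) at 22 °C and −3.39 (adjusted p = 1.23e-05) for the interaction, which kept its call in every setting run. Its peak is on the lowest score step, 4.11, in intron 6, 97733 bases past the start and in a (CA)n simple repeat.

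Fras1, a matrix protein that anchors epithelia to the basement membrane, had 6.05, 7.86, 7.59 and 8.57 normalised counts in Cre-labelled and 187, 212, 191 and 227 in control libraries at 30 °C. At 22 °C it had 0.511, 0, 0.457 and 0 in Cre-labelled and 15.2, 1.04, 8.28 and 9.13 in control libraries. It has the same high group as Tusc3, the control libraries at 30 °C. The log2 difference, on the log2(value + 1) scale that understates changes of low genes, was −4.59 (adjusted p = 9.60e-06) at 30 °C and −2.62 (adjusted p = 0.00219) at 22 °C, where the fit on the groups compared alone lost the call (adjusted p = 0.0934). Its peak scores 7.15 and lies in intron 2. Lncenc1, a noncoding RNA with a member at 9.83, had 16.6, 9.04, 4.43 and 8.27 in Cre-labelled and 63.5, 65.8, 53.0 and 86.2 in control libraries at 30 °C (log2 difference −2.79, adjusted p = 0.0024).

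Acaa1b, a peroxisomal thiolase that completes cycles of fatty acid oxidation, had 39.4, 57.2, 71.9 and 36.1 normalised counts in Cre-labelled and 151, 161, 187 and 153 in control libraries at 30 °C. At 22 °C it had 271, 95.1, 267 and 197 in Cre-labelled and 992, 1518, 1198 and 1242 in control libraries. It was lower in every Cre-labelled library, and lower at 30 °C than at 22 °C in both genotypes. The log2 differences were −1.70 (adjusted p = 6.87e-04) at 30 °C and −2.67 (adjusted p = 1.13e-05) at 22 °C. Acaa1b has a close paralog, Acaa1a, so the split of reads between them is uncertain. Its peak, with a score of 4.65, is in intron 2, 1215 bases past the start.

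Cdh2, N-cadherin, had 328, 456, 375 and 467 normalised counts in Cre-labelled and 1066, 1172, 938 and 1375 in control libraries at 30 °C. At 22 °C it had 213, 287, 230 and 280 in Cre-labelled and 523, 476, 463 and 609 in control libraries. The groups do not overlap at either temperature, with log2 differences of −1.48 (adjusted p = 6.16e-06) and −1.04 (adjusted p = 2.81e-04). With Tusc3, Fras1 and Acaa1b it is among the 10 largest decreases at 30 °C by the same rule, and the remaining 6 are Plekhg6 (a guanine nucleotide exchange factor, −1.23), Slc7a8 (a neutral amino acid transporter, −1.17), Trim2 (a ubiquitin ligase, −0.98), Celf2 (an RNA-binding splicing regulator, −0.88), Stk38l (the NDR2 kinase, −0.87) and Pter (a phosphotriesterase-related enzyme, −0.86). Plekhg6 and Slc7a8 each lost the call in 7 settings, with adjusted p up to 0.103 and 0.0779. Both lost it without control library 3 or 4 or Cre-labelled library 1 or 2 at 30 °C, Plekhg6 also without control 1 or Cre-labelled 4, and Slc7a8 also without control 2 or Cre-labelled 3.

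At 22 °C, Acaa1b and Cdh2 lead the 10 largest decreases by the same rule, and the remaining 8 fell by 0.59 to 0.82 on the log2 scale. They are Rmdn1 (a regulator of microtubule dynamics, −0.82), Tppp (a tubulin polymerisation protein, −0.76), Plgrkt (a plasminogen receptor, −0.67), Ntrk2 (the BDNF receptor TrkB, −0.66), Abhd5 (the coactivator of the triglyceride lipase ATGL, −0.65), Gpi1 (glucose-6-phosphate isomerase, −0.65), St6galnac6 (a sialyltransferase, −0.60) and Msrb1 (a methionine sulfoxide reductase, −0.59). At 30 °C, Rmdn1 fell by 0.82, Ntrk2 by 0.67, Plgrkt by 0.65 and St6galnac6 by 0.64 (adjusted p = 0.00168, 0.0109, 0.002 and 7.53e-04), while Gpi1 fell by 0.56 (adjusted p = 0.0301), a call lost in 7 settings. Stk38l also fell at 22 °C, by 0.43 (adjusted p = 0.0269), a call lost in 8 settings. Stk38l also has a weaker promoter peak (score 5.18) and Gpi1 a weaker intergenic peak (5.9). Tppp, whose member in a CpG island is shown in sequence above, had 594, 404, 695 and 734 normalised counts in Cre-labelled and 847, 869, 1220 and 1132 in control libraries at 22 °C. These 2 groups do not overlap, and the call was lost in the fit of the groups compared alone (adjusted p = 0.0638). Abhd5, Gpi1 and Ntrk2 each lost the call with quantile normalisation, without control library 3 and without Cre-labelled library 3. Abhd5 also lost it without Cre-labelled library 1 and Gpi1 without Cre-labelled library 4, and both in the fit of the groups compared alone (adjusted p up to 0.0844 for Abhd5, 0.0990 for Gpi1 and 0.0732 for Ntrk2).

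**Figure D4:**
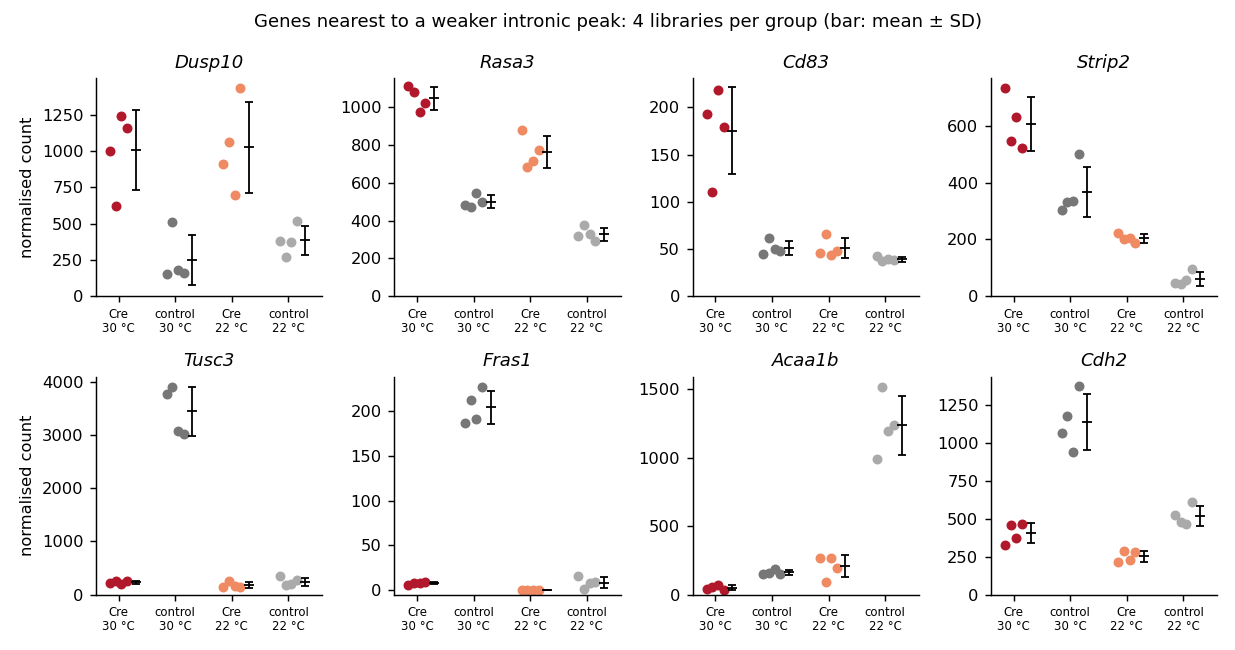
Normalised counts (vertical axes) of 8 genes nearest to a weaker intronic peak in Cre-labelled and control libraries at 30 °C and then at 22 °C; points are 4 libraries per group and black bars are the mean ± SD. Dusp10 and Rasa3 are higher in Cre-labelled libraries at both temperatures, Tusc3 is at 3012 and over in the control libraries at 30 °C alone, and Acaa1b and Cdh2 are lower in Cre-labelled libraries at both.

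Of the genes with the most member peaks, Arhgap26 and Slc24a3 did not pass at 30 °C, while Esr1, Dock9 and Ntrk2 did. Ntrk2, with 3 members, fell by 0.67 (adjusted p = 0.0109), as given above. Arhgap26, a GTPase-activating protein, has 5 members with scores from 4.11 to 9.3, of which 4 are in its first intron. It had 794, 922, 828 and 846 normalised counts in Cre-labelled and 772, 606, 787 and 919 in control libraries at 30 °C, with a log2 difference of 0.15 (adjusted p = 0.581). Slc24a3, a sodium, calcium and potassium exchanger with 4 members in intron 2 and a weaker intergenic peak (score 6.08), differed by −0.44 (adjusted p = 0.0579). Esr1, the oestrogen receptor alpha, has a weaker intergenic peak with a score of 7.15. It also has 4 members in one intron between 3454 and 32950 bases past the start. It had 1041, 1104, 995 and 1123 normalised counts in Cre-labelled and 874, 770, 651 and 778 in control libraries at 30 °C, so the groups do not overlap. The log2 differences were 0.48 (adjusted p = 0.0382) at 30 °C and 0.54 (adjusted p = 0.0248) at 22 °C. They missed the threshold in 8 and 5 settings, with adjusted p up to 0.114 and 0.113. At 30 °C leaving out any 1 of control libraries 2, 3 and 4 or of the 4 Cre-labelled libraries was enough. Dock9, an exchange factor for CDC42 with 3 members and a stronger peak, rose by 0.65 (adjusted p = 0.0326) at 30 °C, a call lost without control library 1, 2 or 4 or Cre-labelled library 1, 3 or 4 (adjusted p up to 0.113).

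Klf2, a transcription factor of endothelial and immune cells, has the second closest member to a start. It had 1319, 801, 1701 and 1624 normalised counts in Cre-labelled and 458, 984, 623 and 442 in control libraries at 30 °C. Control library 2 lies above Cre-labelled library 2, so the groups overlap. The log2 difference was 1.14 (adjusted p = 0.0220), and it was lost without control library 1 or 4 or Cre-labelled library 1, 3 or 4 (adjusted p up to 0.0823).

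Gene lists were set beside the members, and no list was tested for an excess of members or of calls. For scale, 748 of all 13176 genes tested are nearest to a member. The calls in every list below stand beside 5.65% higher and 6.85% lower over all genes at 30 °C. At 22 °C these shares are 5.51 and 4.69%. Of 29 fatty acid oxidation genes tested, 2 were higher and 18 lower in Cre-labelled fat at 30 °C, and 2 higher and 14 lower at 22 °C, but members stand near 2 of them. Those are Acaa1b and Hadh, the mitochondrial short-chain dehydrogenase, with a log2 difference of −0.57 (adjusted p = 0.0191) at 30 °C that was lost without control library 2 or 4 or Cre-labelled library 1 (adjusted p up to 0.0690). Of 28 brown fat identity genes, 1 was higher and 10 lower at 30 °C, and 1 higher and 6 lower at 22 °C. The 2 near members, Esrrg and Ppara, had log2 differences of −0.68 (adjusted p = 0.106) and −0.30 (adjusted p = 0.144) at 30 °C and did not pass. Esrrg passed in the fit of the groups compared alone (adjusted p = 0.0360), and Ppara without control library 3 at 30 °C (adjusted p = 0.0447).

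Of the nuclear receptors, which share corepressors with BCL6, 6 of 30 tested are nearest to a member. Among the 30, 4 were higher and 6 lower at 30 °C, and 2 higher and 2 lower at 22 °C. Ppard had 397, 491, 433 and 475 normalised counts in Cre-labelled and 309, 312, 243.8 and 314 in control libraries at 30 °C (log2 difference 0.61, adjusted p = 0.0208). Thrb, a thyroid hormone receptor, had 347, 348, 354 and 394.8 in Cre-labelled and 573, 514, 478 and 524 in control libraries (−0.53, adjusted p = 0.00535). Neither pair of groups overlaps. At 22 °C Ppard differed by 0.66 (adjusted p = 0.0170), a call lost in the fit of the groups compared alone and without Cre-labelled library 1 or 4 (adjusted p up to 0.0850). The Ppard call at 30 °C was lost without control library 3 or Cre-labelled library 2 or 4 (adjusted p up to 0.0682), and Thrb also has a stronger intronic peak. Esr1 is the other that passed, and Esrrg, Ppara and Nr1d2 did not, apart from the settings given above for Esrrg and Ppara.

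In the insulin and IGF list, 4 of 28 were higher and 1 lower at 30 °C, and 5 higher and 2 lower at 22 °C. Members stand near Igf1, Igf1r, Pdk1 and Tbc1d4, among others. Tbc1d4, the AS160 protein that holds back the glucose transporter GLUT4, had 787, 712, 651 and 674 normalised counts in Cre-labelled and 1158, 999.5, 1134 and 1397 in control libraries at 30 °C. It was lower in all 4 (log2 difference −0.72, adjusted p = 0.00183), and at 22 °C by −0.54 (adjusted p = 0.0161), a call lost in the fit of the groups compared alone (adjusted p = 0.0733). Its peak scores 8.22 and is 1578 bases past the start. Igf1, Igf1r and Pdk1 did not pass at 30 °C. In alternative settings, Pdk1 passed there in 4 (adjusted p from 0.0164 to 0.0465) and Igf1 in 2 (0.0425 and 0.0479).

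Among 24 corepressor genes, 3 were higher and 1 lower at 30 °C, and 2 higher and 1 lower at 22 °C, and members stand near Hdac4 and Ncor1. Hdac4, a class II histone deacetylase, rose by 0.56 (adjusted p = 0.0223) at 30 °C and 0.66 (adjusted p = 0.0114) at 22 °C, but also has 3 stronger intronic peaks, and its call at 30 °C was lost in 5 settings that each leave out 1 library (control 1, 2 or 4, Cre-labelled 2 or 3; adjusted p up to 0.0644). The Hdac4 call at 22 °C was lost in the fit of the groups compared alone (adjusted p = 0.0663). Ncor1, the corepressor itself, differed by −0.08 (adjusted p = 0.708) at 30 °C and rose by 0.38 (adjusted p = 0.0391) at 22 °C, a call lost in 9 settings, among them without control library 1 or 3 or Cre-labelled library 3 or 4 (adjusted p up to 0.137). Among 27 JAK-STAT genes, 2 were higher and 1 lower at 30 °C and 2 higher and 0 lower at 22 °C, and the 1 near a member is Prlr, the prolactin receptor. Prlr had 94.8, 76.5, 46.5 and 83.9 normalised counts in Cre-labelled and 6.24, 22.3, 48.5 and 23.4 in control libraries at 30 °C. Its groups overlap through control library 3 and Cre-labelled library 3, the log2 difference was 1.80 (adjusted p = 0.0170), and without Cre-labelled library 1 the adjusted p was 0.0552. At 22 °C it was 1.57 (adjusted p = 0.0402), a call lost in 13 settings (adjusted p up to 0.136).

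Of 28 lipogenesis genes, 1 was higher and 5 lower at 30 °C and 0 higher and 4 lower at 22 °C, with members near Abhd5, Fasn and Lpin2. Of 18 clock genes, 0 were higher and 1 lower at each temperature, and Arntl, Per2 and Nr1d2, near members, did not pass. Of 25 adhesion genes, 3 were higher and 3 lower at 30 °C and 5 higher and 1 lower at 22 °C, with members near Fras1, Col4a2, Dmd, Tln2 and Utrn, of which Fras1 passed. In 3 further lists no gene is nearest to a member. They are 26 genes known to be repressed by BCL6 in other cells (7 higher and 1 lower at 30 °C, 6 higher and 1 lower at 22 °C), 15 macrophage genes (11 higher and 0 lower at 30 °C, 8 higher and 1 lower at 22 °C) and 21 skeletal muscle genes (0 higher and 1 lower at 30 °C, 0 of either at 22 °C).

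Between temperatures, 191 genes near members were higher at 30 °C than at 22 °C in control fat (25.5%, background 22.9%) and 164 lower (21.9%, background 22.7%). In Cre-labelled fat, 112 were higher (15.0%, background 15.0%) and 139 lower (18.6%, background 17.7%). In this fit the members as a whole stand near the background. The library totals differ between the temperatures, and the counts moved with the scaling. With quantile normalisation, 168 were higher (22.5%, background 18.1%) and 146 lower (19.5%, background 21.2%) in control fat. In Cre-labelled fat, 129 were then higher (17.2%, background 14.9%) and 133 lower (17.8%, background 17.8%). Within the members the direction went with distance. For the 148 genes whose closest member is within 1 kb of the start, 12.2% were higher and 31.1% lower at 30 °C in control fat. For 1 to 10 kb the shares were 20.2 and 26.0%, and for 10 to 50 kb 26.5 and 21.6%. For the 144 genes beyond 50 kb, 43.8% were higher and 8.33% lower. Weaker peaks of other classes, which lie nearer to or farther from starts, also differed in direction in control fat. Of 408 genes nearest to a weaker promoter peak, 15.2% were higher and 28.4% lower. Of 493 genes nearest to a weaker intergenic peak, 28.6% were higher and 21.3% lower. The 59 genes with a member in a CpG island had 3 higher and 23 lower (39.0%). Without the 2 libraries with the fewest genes above 0, the shares were 14.2 and 33.8% within 1 kb and 45.1 and 9.03% beyond 50 kb. With the muscle score as covariate, 145 genes near members were higher (19.4%, against 18.03% of all genes) and 151 lower (20.2%, against 18.7%) in control fat. The shares were then 9.46 and 28.4% within 1 kb, 13.9 and 24.9% for 1 to 10 kb, 19.8 and 20.1% for 10 to 50 kb, and 35.4 and 6.25% beyond 50 kb. These distance classes were drawn after earlier results were known and carry no test.

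The same calls were sorted by the length of the nearest gene, which for 268 members is not the gene that holds the intron. Genes near members had a median RefSeq length of 54310 bases (748 of 748 matched), against 22356 bases for the other genes tested (99.9% of all tested matched). In genes of up to 25 kb, 11.2% of 205 near members were higher and 36.6% lower at 30 °C in control fat, against 20.1 and 28.3% of 6677 other genes. From 25 to 50 kb the shares were 17.2 and 24.8% near members, against 22.8 and 20.3% of others. From 50 to 100 kb they were 25.6 and 20.3% near members, against 26.1 and 14.2% of others. From 100 to 200 kb they were 42.1 and 11.1% near members, against 29.0 and 12.0% of others, and over 200 kb 42.5 and 7.09%, against 33.1 and 10.7%. The shares moved with length in the other genes as well, over a smaller range. With the muscle score as covariate, 9.76% of genes near members of up to 25 kb and 30.7% of those over 200 kb were higher, against 16.7 and 23.4% of other genes. The part of length in the pattern by distance was not tested.

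**Figure D5:**
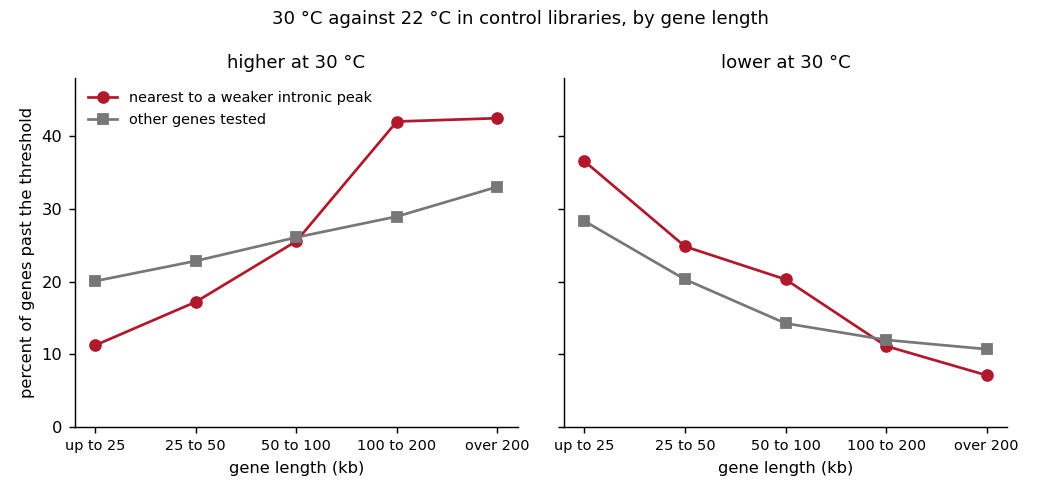
Percent of genes (vertical axis) that were higher (left) or lower (right) at 30 °C than at 22 °C in control fat, at an adjusted p under 0.05 in limma, by gene length (horizontal axis, kb); circles are genes nearest to a weaker intronic peak and squares are the other genes tested. Higher calls run from 11.2% to 42.5% near members and from 20.1% to 33.1% in the other genes.

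Some genes near members had large temperature differences in both genotypes. Fasn, fatty acid synthase, was lower at 30 °C than at 22 °C by 3.23 on the log2 scale in control fat (adjusted p = 1.11e-04) and by 2.66 in Cre-labelled fat (adjusted p = 8.22e-04). Adcy3, an adenylyl cyclase that makes cAMP, had 1175, 1494, 898 and 1274 normalised counts at 30 °C and 3041, 7078, 5250 and 4683 at 22 °C in control libraries. In Cre-labelled libraries it had 946, 1268, 1276 and 1402 at 30 °C and 4585, 5568, 3652 and 7011 at 22 °C. The temperatures do not overlap in either genotype (log2 differences −2.01 and −2.06), and its peak, with a score of 9.47, is 25216 bases past the start. Slc25a34, a mitochondrial carrier, and Shb, an SH2 adaptor, differed by −3.07 and −1.88 in control fat and by −2.52 and −1.86 in Cre-labelled fat. Shb also has a stronger promoter peak, with a score of 25.7, at −265 bases from the start. In the other direction, Strip2 (2.63 in control, 1.56 in Cre-labelled fat), Nek6, a mitotic kinase (2.66 in control fat), Plekhg6 (3.99 and 3.39) and Dpysl3 (1.94 in Cre-labelled fat) were higher at 30 °C, with adjusted p under 0.05 in each. Usp18, which removes the ubiquitin-like protein ISG15, was higher by 1.49 in Cre-labelled fat (adjusted p = 8.95e-04), beside macrophage markers that were also higher at 30 °C in both genotypes.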

How the data were processed

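The deposited peak list is a HOMER annotation table on mm10 with, as deposited by the authors, a score and a focus ratio (a fraction of the peak's reads) per peak; reads were aligned with Bowtie2 and peaks made with HOMER, per the submitters' processing notes, which name no versions. The notes give no unit or threshold for the score and name no input control. RNA values are counts estimated by kallisto and normalised by DESeq2 by the authors, per the submitters' processing notes; they are deposited as a normalised signal that is not whole reads, so depth is unknown and no count test was run. The members, gene lists and classes were chosen with earlier results of these data known. Members were joined to RNA by Entrez gene number. limma 3.58.1 (R 4.3.3) was fitted to log2(value + 1) of 13176 genes with a mean of at least 10, with 1 mean per group over 16 libraries, a trended prior and Benjamini-Hochberg adjustment, and was tested on simulated data. Named genes had an adjusted p under 0.05, a mean of at least 100 and no overlap between groups. Up to 10 each way were taken per genotype comparison and 5 per temperature comparison. Others had the most members, a place in a list, or the extremes of distance or score. Clone names were left out of the rankings, but are given for peaks just outside the threshold and for the interaction. Klf2, Lncenc1, Tc2n and 5031439G07Rik come in by the distance, score and interaction parts. Clopper-Pearson intervals are at 95%. Alternatives changed the pseudocount, filter, scaling, trend, block, covariate, libraries, score limit, distance limit and gene assignment. The motif share among the members was not run, since no genome was used here. One gene of the insulin and IGF list is not reported here.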

Additional observations from a re-analysis of the deposited data

Results flagged for a closer look

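Single libraries stood far from the other 3 of their group in 14 of the 325 sets of 4 libraries examined (4.31%, over 83 genes), and chance alone gives about 1 in 20. In control libraries at 30 °C these were Dusp10 at 510 and Litaf at 508 normalised counts in library 2, where Igf1 was also high at 479, Strip2 at 499.7 in library 4, Stk39 at 498 in library 1 and Ppard, low, at 243.8 in library 3. In Cre-labelled libraries at 30 °C they were Thrb at 394.8 in library 4, Park2 at 496 in library 3 and Erbb4, low, at 73.8 in library 1. In Cre-labelled libraries at 22 °C they were Esrrg at 407 in library 4 and Igf1, low, at 240.3 in library 1. In control libraries at 22 °C they were Stk39 at 276.9 in library 1, Prlr at 33.6 in library 2 and Bcl6 at 1838 in library 4.

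The Cre-labelled minus control difference itself differed between 30 °C and 22 °C for 5 genes near members (interaction in limma over 13176 genes). The interaction was −3.39 on the log2 scale for Tusc3 (adjusted p = 1.23e-05), 0.98 for 5031439G07Rik (adjusted p = 0.0025), 2.05 for Tc2n (adjusted p = 0.0247), 1.36 for Cd83 (adjusted p = 0.0420) and −1.20 for Stk39 (adjusted p = 0.0450). Tusc3 kept its call in every setting run, while Cd83 and Stk39 lost theirs in 16 and 18 settings. Tc2n and 5031439G07Rik were not followed through the settings one by one.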

How the results depend on the processing

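With 1 ChIP library, unknown RNA depth and 4 libraries per group, counts of called genes are the least firm values here. Counts of genes near members moved by more than 1.5 times as follows. At 30 °C the groups compared alone gave 80 higher beside 8.52% of all genes, and leaving out the 2 libraries with the fewest genes above 0 gave 97 higher and 97 lower beside 10.1 and 11.1%. At 22 °C the groups compared alone gave 26 higher and 13 lower beside 2.09 and 1.89% of all genes, and leaving out those 2 libraries gave 68 lower beside 9.08%. For the interaction, a pseudocount of 5 gave 5 lower, leaving out the 2 libraries gave 7 lower, no filter on low values, centring on library medians, no trend or the muscle score as covariate gave 1 lower, and a mean of at least 50, the replicate block or the muscle score gave 1 higher. The cause was not tested. Leaving out 1 library at a time gave 31 to 71 higher and 36 to 70 lower at 30 °C. Over all 13176 genes the ranges were then 452 to 982 and 559 to 1135. At 22 °C it gave 38 to 88 higher and 23 to 64 lower. The ranges over all genes were then 404 to 1164 and 360 to 1192. Between temperatures, leaving out 1 library gave 154 to 202 higher and 145 to 171 lower in control fat. Over all genes the ranges were then 2476 to 3310 and 2606 to 3200. In Cre-labelled fat it gave 90 to 132 higher and 110 to 149 lower. Over all genes these were 1500 to 2315 and 1832 to 2626. For the interaction it gave 1 to 3 in each direction, beside 4 to 42 higher and 17 to 62 lower over all genes. Among members with scores from the median up, 9.13% were higher at 30 °C. Among members within 10 kb of a start, 5.92% were higher at 22 °C, 16.5% higher and 28.3% lower between temperatures in control fat, 9.66% and 23.7% in Cre-labelled fat, and 0% lower in the interaction. Score limits of 8 or 12 and the upper range of scores left the repeat share between 10.7 and 12.7%, the first-intron share between 40.4 and 42.6% and the median distance between 18916 and 19454.5 bases. The libraries share replicate numbers, but same-numbered libraries did not deviate together (correlations from −0.48 to 0.17). They were therefore not treated as paired, although the labels do not say whether they are related and this check cannot decide it. The replicate block gave 45 higher and 49 lower at 30 °C, beside 686 and 804 of all 13176 genes. At 22 °C it gave 50 higher and 31 lower, beside 635 and 526 of all genes. The log2 differences of named genes were followed over the settings, each gene, comparison and setting counting once. Of these, 4617 stayed on their side of the threshold, 293 no longer passed it, 8 newly passed it and 0 turned round. Most of the comparisons followed were chosen because they had passed, so few could newly pass and 293 and 8 are not comparable. The share of members with a motif was not run, since no genome was used here.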

Other observations

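The genes that hold a member in an intron without being its nearest gene are a further set, with 173 tested. In Cre-labelled against control fat, 10 of them were higher (5.78%, background 5.65%) and 18 lower (10.4%, background 6.85%) at 30 °C, and 15 were higher (8.67%, background 5.51%) and 9 lower (5.20%, background 4.69%) at 22 °C. Between temperatures in control fat, 51 were higher (29.5%, background 22.9%) and 25 lower (14.5%, background 22.7%) at 30 °C. Of the 41 genes tested with a member and also a stronger peak of any class, 6 were higher (14.6%) and 4 lower (9.76%) in Cre-labelled than in control fat at 30 °C, and 7 were higher (17.1%) and 1 lower (2.44%) at 22 °C.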
